A study of Mus musculus with 36 samples.

Results

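This report describes 9 genes that mark alveolar macrophages (Siglecf, Fabp1, Marco, Car4, Krt79, Pparg, Mrc1, Abcg1 and Itgax), chosen by name and matched to the array through its gene symbols, in lungs of mice given repeated ovalbumin (OVA) or saline (PBS). They are 9 of 18193 genes on the array with a probe set of their own, and 13 of 45101 probe sets. All 9 passed the filter on low values (log2 over 5 in at least 3 arrays), as did 12 of their 13 probe sets.

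Total lung RNA of 36 mouse samples, a model of severe asthma, was hybridised to Affymetrix whole-genome mouse arrays, 1 array per sample. OVA mice had 3 intraperitoneal injections of 50 µg OVA in 0.1 ml PBS (days 1, 4 and 7) and then, beginning on day 12, 20 µg OVA in 30 µl PBS into the nose each week for 9 weeks, while PBS mice had the same schedule without OVA. The mice were C57BL/6, all labelled female and age-matched, with no age given. The samples fell into 10 groups, 5 kinds of mice with OVA and PBS each. KitWsh_MCifngR mice carried the KitWsh mutation and an engraftment coded MCifngR. KitWsh_MCigeR mice had the genotype label KitWsh/FcεRIγ-/- and an engraftment coded MCigeR. KitWsh_MC mice carried KitWsh and an engraftment coded MC. KitWsh mice and WT mice had no engraftment. All kinds but WT were labelled as backcrossed for more than 10 generations. What these codes stand for is not given in the labels, and whether the FcεRIγ deficiency belongs to the recipient or to the engrafted cells is not stated either. There were 4 arrays for every OVA group and for WT PBS, and 3 for each of the remaining PBS groups. The labels do not say that these are separate animals, so the p-values measure the spread between samples.

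Alveolar macrophages live in the air spaces, take up surfactant lipid, particles and microbes, and renew themselves locally. GM-CSF from the epithelium drives the nuclear receptor Pparg in them, which sets up their lipid handling and much of their marker profile. Siglecf and Itgax (CD11c) are the usual surface pair for gating them in mouse lung, and mouse eosinophils also carry Siglecf. KitWsh is a regulatory mutation at Kit that leaves adult mice without mast cells.

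The lung identity of the samples was clear, since 8 lung epithelial markers averaged log2 10.5 to 13.6 in every array. KitWsh_MCigeR PBS array 2 stood apart: its median correlation with the other arrays was 0.543, against 0.882 to 0.971 for the other 35, and its 3' to 5' beta-actin difference, a sign of RNA breakdown, was 8.43 log2 units, against 1.17 to 6.23. Calls of the 9 genes that rest on it are given with and without it. Differences of second probe sets and of other genes include it unless stated. Of the other 35 arrays, KitWsh_MC OVA array 2 had the lowest median correlation (0.882) and the highest beta-actin difference (6.23), and it was kept. The 3' to 5' difference of Gapdh was largest in KitWsh_MCifngR OVA array 1 (7.51), KitWsh_MC OVA array 2 (6.77) and KitWsh_MCifngR OVA array 4 (5.69). In KitWsh_MCigeR PBS array 2 it was 3.66. KitWsh_MCifngR OVA arrays 1 and 4 were kept as well. Kit was at log2 9.86 to 10.97 in WT arrays, apart from the library labelled WT OVA array 4, at 6.90, which fell among the KitWsh-background arrays (4.52 to 7.52). The Y-linked gene Eif2s3y was at 9.07 in that library and at 9.81 and 9.25 in KitWsh_MCifngR OVA arrays 2 and 3, and at 2.19 to 3.60 in all other arrays. These 3 libraries go against their labels in genotype or sex, and values without these 3 and KitWsh_MCigeR PBS array 2 are called values without the 4 doubted arrays. In the KitWsh_MCifngR OVA group those values rest on arrays 1 and 4 alone.

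The 250 bases before the transcription start (RefSeq, GRCm38.p6, gene orientation, 5' to 3') are shown for some of the genes. These are the 3 genes called with OVA in KitWsh_MC mice and Mrc1, among those called over all 5 kinds. Capitals mark GAGGAA, a core bound by the macrophage factor PU.1, and AGGTCA, the half-site of nuclear receptors such as Pparg; where the match lies on the opposite strand the capitals read TTCCTC or TGACCT.
Siglecf: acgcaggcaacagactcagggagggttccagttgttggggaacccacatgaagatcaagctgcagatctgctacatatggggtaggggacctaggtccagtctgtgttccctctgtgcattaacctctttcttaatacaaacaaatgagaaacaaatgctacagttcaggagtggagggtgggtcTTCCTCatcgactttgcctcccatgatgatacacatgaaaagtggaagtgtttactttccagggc
Fabp1: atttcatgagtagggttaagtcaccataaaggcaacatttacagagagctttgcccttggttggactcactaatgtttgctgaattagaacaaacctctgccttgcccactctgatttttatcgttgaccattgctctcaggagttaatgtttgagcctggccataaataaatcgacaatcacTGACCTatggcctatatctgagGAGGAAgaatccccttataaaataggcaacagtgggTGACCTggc
Marco: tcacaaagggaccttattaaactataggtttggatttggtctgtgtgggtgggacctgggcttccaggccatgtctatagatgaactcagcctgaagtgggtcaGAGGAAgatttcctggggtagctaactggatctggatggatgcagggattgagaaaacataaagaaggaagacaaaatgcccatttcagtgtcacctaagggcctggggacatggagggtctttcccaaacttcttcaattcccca
Mrc1: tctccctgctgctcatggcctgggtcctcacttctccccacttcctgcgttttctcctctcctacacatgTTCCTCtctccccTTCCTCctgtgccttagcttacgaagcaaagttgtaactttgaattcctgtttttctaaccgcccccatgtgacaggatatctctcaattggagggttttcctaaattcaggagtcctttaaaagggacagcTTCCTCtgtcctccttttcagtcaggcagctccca
These windows lie at chr7:43351091-43351340 (Siglecf, plus strand), chr6:71199629-71199878 (Fabp1, plus), chr1:120505025-120505274 (Marco, minus) and chr2:14229164-14229413 (Mrc1, plus). Siglecf holds 1 GAGGAA, on the opposite strand, which begins 65 bases before the start. Fabp1 holds GAGGAA at 45 and AGGTCA on the opposite strand at 67 and 9. Marco holds GAGGAA at 146, and Mrc1 holds it 3 times on the opposite strand, at 180, 167 and 35. Of the 10 entries for 8 of the 9 genes, 5 hold GAGGAA and 3 hold AGGTCA, in either strand; of all 32851 entries of that length, 23.3% and 14.0% do. The entries of Itgax, also called over all 5 kinds, and of Car4 and Krt79 are not shown and hold neither motif. Abcg1 has no entry. The 2 motifs do not overlap in letters, and a match describes letters only.

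Averaged over the 5 kinds of mice, OVA lungs had more mannose receptor, CD11c, Marco and Abcg1 RNA and less Fabp1 RNA than PBS lungs. Mrc1 rose 2.43-fold (log2 1.28 ± 0.26 SE, adjusted p = 0.0015), Itgax 2.39-fold (1.25 ± 0.25, adjusted p = 0.0012), Marco 2.01-fold (1.01 ± 0.30, adjusted p = 0.0216) and Abcg1 1.51-fold (0.60 ± 0.13, adjusted p = 0.0019). Fabp1 fell 2.68-fold (-1.42 ± 0.27, adjusted p = 0.000832). Thus 5 of 9 genes were called by limma at an adjusted p under 0.05 over 11599 genes, where 16.6% of all tested genes were. Siglecf had a mean difference of 0.03 (95% interval -0.27 to 0.32), made up of differences of opposite sign in different kinds of mice. Signs also differed for Fabp1, lower with OVA in 3 kinds and higher in 2, and for Marco, higher in 4 and lower in 1. Krt79 (0.59, adjusted p = 0.0628), Pparg (0.45, adjusted p = 0.14) and Car4 (0.32, adjusted p = 0.314) did not pass. Without KitWsh_MCigeR PBS array 2, the same 5 genes were called, beside 27.5% of all genes, with differences of 1.01 for Mrc1, 1.08 for Itgax, 1.00 for Marco, 0.56 for Abcg1 and -1.32 for Fabp1. In bulk lung, fewer cells of a type and less RNA per cell cannot be told apart.

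**Figure D1:**
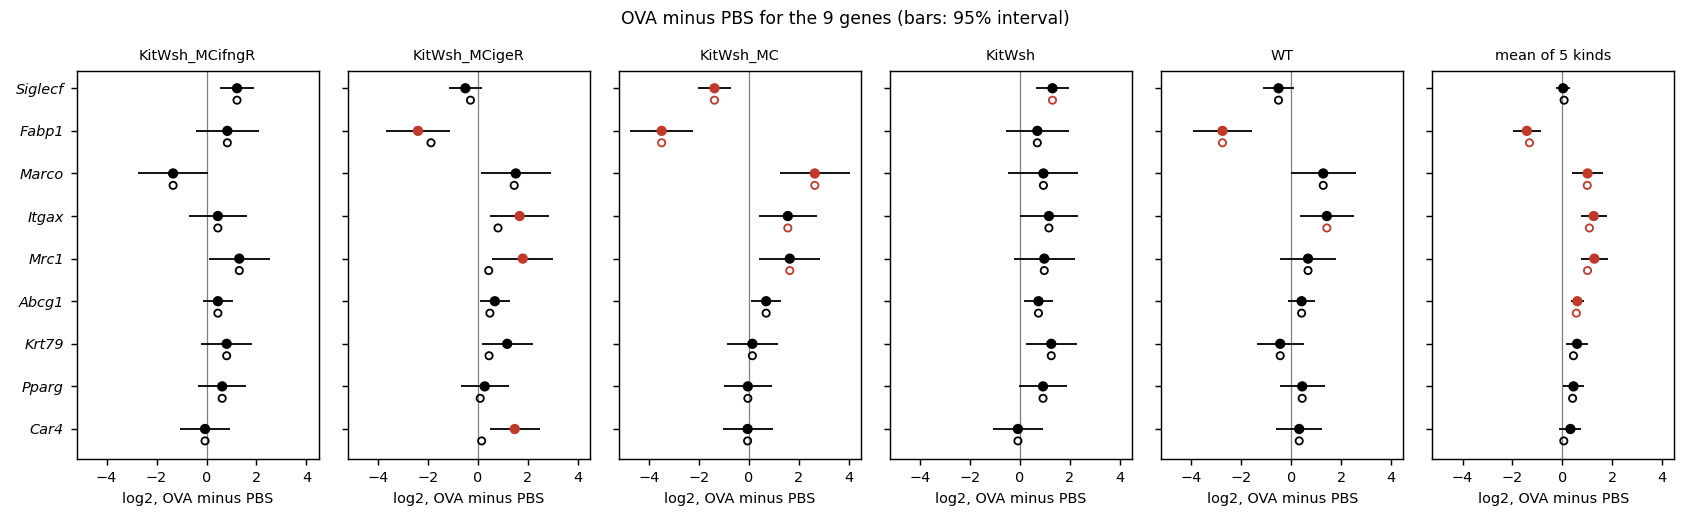
OVA minus PBS differences (log2, x axis) of the 9 genes in each kind of mice and as the mean of 5 kinds; points are limma estimates with 95% intervals, red where called, and hollow points leave out KitWsh_MCigeR PBS array 2. Siglecf lies at 1.30 in KitWsh and 1.22 in KitWsh_MCifngR mice and at -1.38 in KitWsh_MC mice, while Mrc1, Abcg1 and Itgax lie above 0 in every kind.

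Siglecf (1424975_at, chr7:43351341-43359475) encodes a sialic acid-binding lectin with an inhibitory tail. OVA lungs had log2 intensities of 5.82, 5.90, 6.87 and 7.24 in KitWsh_MCifngR mice, against 5.43, 5.10 and 5.18 in PBS lungs. In KitWsh mice OVA lungs were at 6.80, 6.92, 6.31 and 7.14 and PBS lungs at 5.51, 5.94 and 5.04. Every OVA array of these 2 kinds lay above every PBS array. KitWsh_MC mice ran the other way, with 5.96, 5.38, 5.05 and 5.75 in OVA lungs, against 6.86, 6.93 and 6.96 in PBS lungs, again with no overlap. KitWsh_MCigeR OVA lungs had 5.85, 7.16, 6.73 and 6.80, and PBS lungs 6.94, 7.54 and 6.91. WT OVA lungs had 6.64, 7.35, 6.91 and 6.36, and PBS lungs 7.45, 7.71, 7.35 and 6.79. In both of these kinds the groups overlapped.

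Siglecf fell 2.60-fold with OVA in KitWsh_MC mice (log2 -1.38 ± 0.33, adjusted p = 0.0107). In KitWsh mice the difference was 1.30 ± 0.33 (adjusted p = 0.0595), and without KitWsh_MCigeR PBS array 2 Siglecf was called there (adjusted p = 0.0181). In KitWsh_MCifngR mice it was 1.22 ± 0.33 and missed the threshold both ways (adjusted p = 0.168, and 0.0617 without that array). WT (-0.51, adjusted p = 0.458) and KitWsh_MCigeR mice (-0.50, adjusted p = 0.232, and -0.29, adjusted p = 0.967 without that array) showed no called difference. The KitWsh_MC call held in 6 of 7 fits that left out 1 of its arrays (adjusted p = 0.0531 without PBS array 3). By group mean, without that array, Siglecf was highest in WT PBS (7.33), followed by KitWsh_MCigeR PBS (6.93), KitWsh_MC PBS (6.91), WT OVA (6.82), KitWsh OVA (6.79), KitWsh_MCigeR OVA (6.64) and KitWsh_MCifngR OVA (6.46). A lower set followed with KitWsh_MC OVA (5.54), KitWsh PBS (5.49) and KitWsh_MCifngR PBS (5.24). Each neighbouring pair in this order overlapped in its arrays.

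Fabp1 (1448764_a_at, chr6:71199879-71205034) encodes the liver-type fatty acid-binding protein. In KitWsh_MC mice OVA lungs had 6.99, 6.35, 5.24 and 7.06, against 10.47, 9.38 and 9.85 in PBS lungs. WT OVA lungs had 5.89, 4.43, 6.64 and 8.09, against 9.58, 9.08, 9.29 and 8.12 in PBS lungs. KitWsh_MCigeR OVA lungs had 5.61, 7.51, 7.16 and 7.26, against 8.66, 10.32 and 8.86 in PBS lungs. All OVA arrays of these 3 kinds lay below all their PBS arrays, though in WT mice only just, through the library labelled WT OVA array 4. The other 2 kinds did not share this: KitWsh_MCifngR OVA lungs had 9.08, 7.85, 9.86 and 7.70, against 7.65, 8.04 and 7.66 in PBS lungs. KitWsh OVA lungs had 8.61, 8.66, 7.94 and 8.23, against 7.34, 8.28 and 7.39 in PBS lungs. For this probe set both pairs of groups overlapped, and both OVA means were the higher.

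Fabp1 fell 11.3-fold with OVA in KitWsh_MC mice (log2 -3.49 ± 0.62, adjusted p = 0.00104) and 6.74-fold in WT mice (-2.75 ± 0.58, adjusted p = 0.0142). Without the library labelled WT OVA array 4 the WT difference was -3.36 (adjusted p = 0.000658, with 5.11% of all genes called), and the WT call held in 4 of 8 fits that left out 1 WT array (adjusted p = 0.11 without OVA array 2). In KitWsh_MCigeR mice it fell by 2.39 (adjusted p = 0.0443), a call that ended without KitWsh_MCigeR PBS array 2 (-1.87, adjusted p = 0.639). The differences in KitWsh_MCifngR (0.83) and KitWsh mice (0.69, adjusted p = 0.753) were not called. A second Fabp1 probe set, 1417556_at, tested in a fit of all probe sets, fell by 3.31 in KitWsh_MC mice (adjusted p = 0.00181) and by 3.00 in WT mice (adjusted p = 0.00727). It was not called in KitWsh_MCigeR mice (-1.15, adjusted p = 0.159). In KitWsh_MCifngR mice every OVA array of 1417556_at (5.98 to 7.90) lay above every PBS array (4.96 to 5.61), without a call (1.42, adjusted p = 0.831). In KitWsh mice it differed by 0.64 (adjusted p = 0.84).

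**Figure D2:**
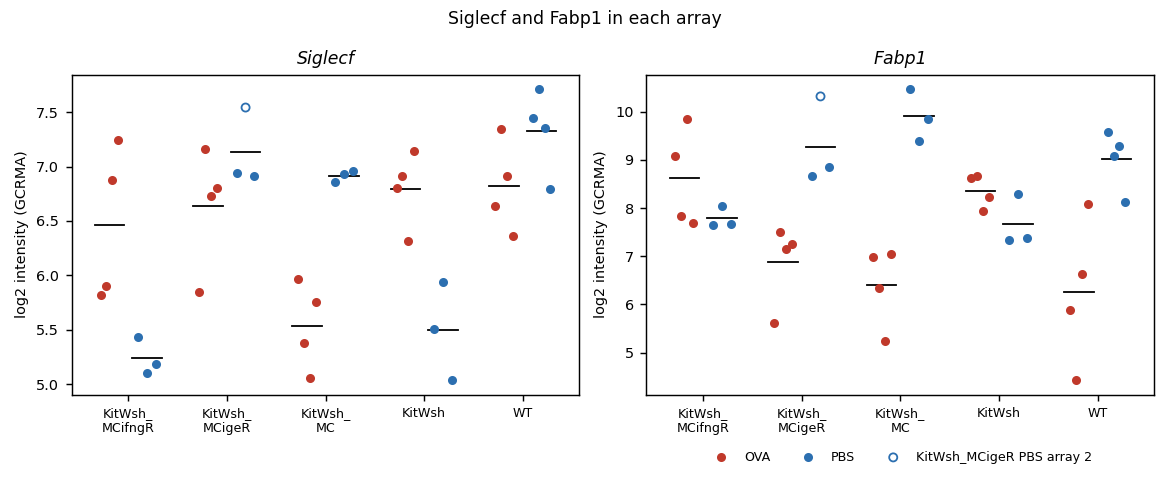
Log2 intensity (y axis) of Siglecf and Fabp1 in each array, by kind of mice; red points are OVA arrays, blue points PBS arrays, black lines group means, and the hollow point is KitWsh_MCigeR PBS array 2. In KitWsh_MC mice both genes are lower in every OVA array than in any PBS array, and in KitWsh and KitWsh_MCifngR mice Siglecf is higher in every OVA array.

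Marco (1449498_at, chr1:120474538-120505024) is a scavenger receptor that binds unopsonised particles and bacteria. KitWsh_MC OVA lungs had 8.17, 7.66, 7.78 and 7.96, against 4.78, 5.85 and 5.12 in PBS lungs, with no overlap. Marco rose 6.23-fold there (log2 2.64 ± 0.69, adjusted p = 0.0187), a call that held in 5 of 7 fits that left out 1 array (0.0854 without PBS array 1). WT OVA lungs had 8.46, 8.04, 7.95 and 5.67, against 6.59, 6.60, 5.43 and 6.37 in PBS lungs. The value of 5.67 is the library labelled WT OVA array 4, and the other 3 OVA arrays lay above all PBS arrays. The WT difference of 1.28 was not called (adjusted p = 0.334), and without the 4 doubted arrays it was 1.90 (adjusted p = 0.0185, with 18.9% of all genes called).

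KitWsh_MCigeR OVA lungs had Marco values of 8.36, 7.07, 7.26 and 7.30, against 7.39, 5.85 and 4.68 in PBS lungs. KitWsh OVA lungs had 6.09, 5.76, 4.17 and 5.80, against 4.84, 4.03 and 4.68. In KitWsh_MCifngR mice OVA lungs ranged most widely of all groups, at 5.05, 4.90, 3.39 and 7.39, against 5.71, 6.54 and 7.32 in PBS lungs. All 3 pairs overlapped, and none was called (1.52, 0.94 and -1.34). Without the 4 doubted arrays the KitWsh_MCifngR difference was -0.30 (adjusted p = 0.865). The second probe set, 1458297_s_at, was never over log2 5 (highest 4.46) and was not tested.

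Itgax (1419128_at, chr7:128129526-128150657) encodes CD11c, the integrin chain that alveolar macrophages share with dendritic cells. WT OVA lungs had 10.16, 11.31, 10.16 and 9.08, against 8.76, 8.82, 8.76 and 8.67 in PBS lungs. KitWsh_MC OVA lungs had 10.43, 8.77, 9.77 and 10.46, against 7.85, 8.50 and 8.54, the 8.77 being OVA array 2 with its high beta-actin difference. KitWsh OVA lungs had 9.79, 10.06, 9.44 and 10.21, against 8.71, 9.04 and 8.42. In these 3 kinds no OVA array was as low as a PBS array. The same held in KitWsh_MCigeR mice, where OVA lungs had 9.85, 9.40, 9.31 and 9.61, against 8.96, 6.13 and 8.50 in PBS lungs, the 6.13 being array 2. KitWsh_MCifngR OVA lungs had 8.01, 8.80, 9.09 and 11.31, against 8.73, 8.87 and 8.96, with overlap. The 11.31, far above the rest, is OVA array 4 with its high Gapdh difference. The difference was 1.43 in WT (adjusted p = 0.163), 1.56 in KitWsh_MC (adjusted p = 0.103) and 1.16 in KitWsh mice (adjusted p = 0.392). Without KitWsh_MCigeR PBS array 2, which lies outside these kinds but widens the spread of the fit, Itgax was called in WT (adjusted p = 0.0432) and KitWsh_MC mice (adjusted p = 0.0239). In KitWsh_MCigeR mice the call (1.68, adjusted p = 0.0473) ended without that array (0.81, adjusted p = 0.894).

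Mrc1 (1450430_at, chr2:14229414-14332023) encodes the mannose receptor CD206, an endocytic lectin that interleukin-4 also induces. KitWsh_MC OVA lungs had 11.76, 10.46, 11.80 and 12.04, against 9.89, 9.80 and 9.94 in PBS lungs, the 10.46 being OVA array 2 with its high beta-actin difference. KitWsh OVA lungs had 10.84, 10.93, 10.32 and 10.89, against 9.97, 9.78 and 9.56. KitWsh_MCifngR OVA lungs had 9.88, 10.45, 10.82 and 12.31, against 9.61, 9.50 and 9.55, the 12.31 being OVA array 4 with its high Gapdh difference. These 3 pairs did not overlap. WT OVA lungs had 11.15, 11.84, 11.04 and 10.46, against 10.38, 10.60, 10.32 and 10.49 in PBS lungs, overlapping through the library labelled WT OVA array 4. KitWsh_MCigeR OVA lungs had 10.90, 10.19, 10.45 and 10.73, against 9.96, 6.03 and 10.29, overlapping even with array 2 at 6.03. The difference was 1.64 in KitWsh_MC mice (adjusted p = 0.101), and 0.00287 was its adjusted p without KitWsh_MCigeR PBS array 2. In KitWsh_MCigeR mice the call with all arrays (1.81, adjusted p = 0.0461) ended without that array (0.44, adjusted p = 0.935). Among PBS groups, the means were 10.45 in WT, 10.12 in KitWsh_MCigeR without array 2 and 9.88 in KitWsh_MC lungs. The 2 remaining KitWsh_MCigeR arrays (9.96 and 10.29) lay just below the lowest WT array (10.32) and just above the highest KitWsh_MC array (9.94). These differences were not tested.

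Abcg1 (1423570_at, chr17:31057694-31117984) exports cholesterol and is a target of the LXR and Pparg pathway. OVA lungs were wholly above PBS lungs in KitWsh mice, at 10.39, 10.62, 10.26 and 10.39, against 9.44, 10.08 and 9.52. The same held in KitWsh_MCigeR mice, at 9.74, 10.64, 10.08 and 10.18, against 9.62, 9.08 and 9.72. The other 3 kinds overlapped. No single kind gave a call, the differences lying between 0.42 (WT) and 0.74 (KitWsh), without KitWsh_MCigeR PBS array 2. A second probe set, 1455221_at, also rose over the 5 kinds (0.69, adjusted p = 0.0145).

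Pparg (1420715_a_at, chr6:115360879-115490404), the nuclear receptor above these lipid genes, differed by 0.92 in KitWsh mice (adjusted p = 0.416), the kind in which OVA lungs (7.10, 6.94, 6.31 and 6.88) lay wholly above PBS lungs (5.70, 6.13 and 5.83). In the other kinds the differences were 0.63 in KitWsh_MCifngR, 0.28 in KitWsh_MCigeR (0.10 without PBS array 2), -0.04 in KitWsh_MC and 0.44 in WT mice. None was called. KitWsh_MC OVA lungs spread from 4.65 to 7.40, wider than any PBS group. Over the 5 kinds Pparg was called without the 4 doubted arrays (0.58, adjusted p = 0.0381, with 31.2% of all genes called).

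Krt79 (1427352_at, chr15:101929332-101940324), a keratin gene whose transcript marks mouse alveolar macrophages, and Car4 (1418094_s_at, chr11:84957754-84966054), a membrane carbonic anhydrase also found on lung capillary endothelium, had no OVA call that held without KitWsh_MCigeR PBS array 2. Krt79 differed by 1.25 in KitWsh mice (adjusted p = 0.257), with 8.00, 8.65, 7.37 and 8.48 in OVA lungs, against 6.82, 7.42 and 6.39 in PBS lungs. These groups overlapped in 1 pair of arrays. Its WT OVA lungs had 7.30, 6.78, 8.90 and 7.32, against 8.34, 8.41, 7.83 and 7.47. Car4 lay between 10.83 and 12.10 in all arrays but KitWsh_MCigeR PBS array 2 (7.80). Its call in KitWsh_MCigeR mice (1.48, adjusted p = 0.0458) ended without that array (0.16, adjusted p = 0.962). Its second probe set, 1448949_at, was at 3.85 in that array.

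**Figure D3:**
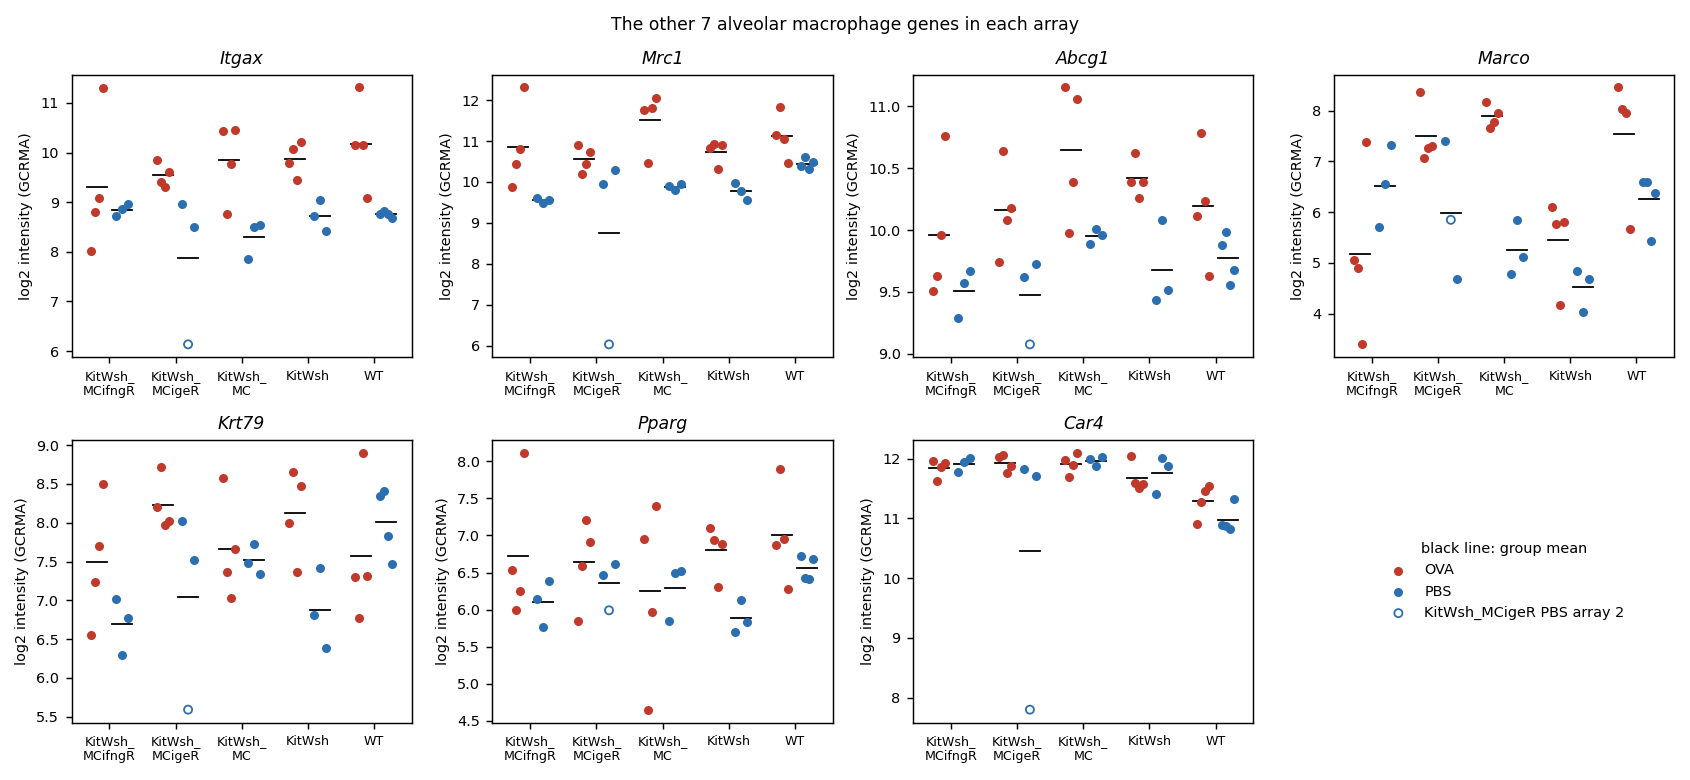
Log2 intensity (y axis) of the other 7 genes in each array, by kind of mice; red points are OVA arrays, blue points PBS arrays, black lines group means, and hollow points are KitWsh_MCigeR PBS array 2. That array is far below the others for Car4 (7.80), Mrc1 (6.03) and Itgax (6.13).

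By kind of mice, 3 of the 9 genes were called with OVA in KitWsh_MC mice (Marco higher, Siglecf and Fabp1 lower), where 6.52% of all tested genes were called. Mrc1 and Itgax joined them without KitWsh_MCigeR PBS array 2, giving 5 of 9 beside 20.5% of all genes. In WT mice 1 was called (Fabp1, lower), beside 1.36% of all genes, and 2 without that array (with Itgax), beside 9.32%. In KitWsh mice limma called 0 of 9, beside 0.621%, while 3 had an unadjusted p under 0.05, as did 13.1% of all genes; without that array it called 1 (Siglecf), beside 6.55%. In KitWsh_MCifngR mice it called 0 of 9, beside 0.155%, with 2 at an unadjusted p under 0.05, as were 5.42% of all genes. Without that array limma also called 0 there, beside 0.776%, with 2 at an unadjusted p under 0.05 (12.0% of all genes). In KitWsh_MCigeR mice 4 of 9 were called, beside 19.0% of all genes, and 0 of 9 and 0 of 11599 genes by limma without array 2, when 1 of 9 and 6.35% of all genes had an unadjusted p under 0.05. The groups did not overlap for 2 of 9 genes in KitWsh_MCifngR mice (13.5% of all genes), 3 in KitWsh_MCigeR (10.2%), 5 in KitWsh_MC (22.6%), 5 in KitWsh (25.5%) and 2 in WT mice (19.5%).

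The median OVA difference of the 9 genes was 0.63 in KitWsh_MCifngR mice, 0.44 in KitWsh_MCigeR mice without array 2, 0.14 in KitWsh_MC, 0.94 in KitWsh and 0.42 in WT mice. The median of all tested genes lay between -0.10 and 0.01 in these 5 comparisons. Without that array, 3 of the 9 genes (Mrc1, Abcg1 and Itgax) were higher with OVA in all 5 kinds, as were 8.61% of all genes, and 0 were lower in all 5, as were 10.1% of all genes.

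The difference of the OVA response between kinds of mice asks whether Kit genotype or engraftment goes with another response. The Siglecf response in KitWsh_MC mice was lower than that in KitWsh mice by 2.68 ± 0.47 log2 units (adjusted p = 0.0117), a drop against a gain. The Fabp1 response differed by -4.19 ± 0.88 (adjusted p = 0.0289). Leaving out 1 array, the Siglecf call held in 13 of 14 fits (0.0516 without KitWsh PBS array 3) and the Fabp1 call in 7 of 14 (adjusted p up to 0.0895), and Fabp1 was not called with median centring (adjusted p = 0.0525). These were 2 of the 9 genes, beside 0.517% of all genes. The Marco response differed by 1.70 (adjusted p = 0.54), with a 95% interval of -0.28 to 3.69.

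The Siglecf response in KitWsh_MCifngR mice exceeded that in KitWsh_MC mice by 2.60 ± 0.47 (adjusted p = 0.028), the only 1 of 9 called, beside 0.0345% of all genes. It held in 8 of 14 fits that left out 1 array (adjusted p = 0.127 without KitWsh_MCifngR PBS array 3). Fabp1 (4.33, adjusted p = 0.0615) and Marco (-3.98, adjusted p = 0.105) passed without KitWsh_MCigeR PBS array 2 (adjusted p = 0.0116 and 0.0417), when 1.48% of all genes did. Without the 4 doubted arrays, which leave 2 KitWsh_MCifngR OVA arrays, Siglecf (2.67, adjusted p = 0.00941) and Fabp1 (4.10, adjusted p = 0.0119) were called and Marco was not (-2.94, adjusted p = 0.0734). This comparison and the one above share the KitWsh_MC arrays. The KitWsh response against the WT response was called for 0 of 9 genes by limma, beside 0.00862% of all genes, with 3 at an unadjusted p under 0.05, as were 6.74% of all genes. Fabp1 (3.45, adjusted p = 0.24) was called there without the library labelled WT OVA array 4 (4.06, adjusted p = 0.0348, with 0.0517% of all genes called). KitWsh_MC against WT gave 0 of 9 calls and 0 at an unadjusted p under 0.05, beside 0.0690% and 5.94% of all genes. Its interval for Siglecf was -1.79 to 0.05.

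Among OVA lungs, KitWsh_MC mice had less Siglecf and Fabp1 and more Marco RNA than KitWsh mice, with no overlap in any of the 3. Siglecf was 2.39-fold lower (log2 -1.26 ± 0.30, adjusted p = 0.00949), Fabp1 3.87-fold lower (-1.95 ± 0.58, adjusted p = 0.0303) and Marco 5.41-fold higher (2.44 ± 0.64, adjusted p = 0.0149). These 3 of 9 calls stand beside 8.85% of all genes, and 18.2% of all genes did not overlap. The Fabp1 call held in 2 of the 8 fits that left out 1 array, the Marco call in 7 (0.0948 without KitWsh OVA array 3) and the Siglecf call in 8. KitWsh_MCifngR OVA lungs differed from KitWsh_MC OVA lungs in the opposite sense, with Siglecf 0.92 higher (adjusted p = 0.0425, groups overlapping), Fabp1 2.21 higher (adjusted p = 0.0125) and Marco lower by 2.71 (adjusted p = 0.00643). Those were 3 of 9, beside 13.2% of all genes. The Siglecf call held in 4 of 8 fits that left out 1 array (adjusted p = 0.16 without KitWsh_MCifngR OVA array 4), Fabp1 in 6 and Marco in 8, and none of the 3 was called in a fit to these 2 groups alone (adjusted p = 0.0514 for Fabp1 and 0.0515 for Marco). Without the 4 doubted arrays the same 3 were called, with Siglecf 0.99 higher (adjusted p = 0.0295), Fabp1 1.98 higher (adjusted p = 0.00901) and Marco lower by 1.67 (adjusted p = 0.0382). That fit rests on KitWsh_MCifngR OVA arrays 1 and 4, whose 3' to 5' Gapdh differences were high (7.51 and 5.69). KitWsh_MCigeR OVA lungs had 1.10 more Siglecf than KitWsh_MC OVA lungs (adjusted p = 0.0439, groups overlapping), the only call of 9, beside 2.93% of all genes. It held in 3 of 8 fits that left out 1 array (adjusted p up to 0.137) and in 6 of 11 fits under other settings (up to 0.112). KitWsh against WT OVA lungs gave 0 calls of 9 by limma, beside 0.121%, with 2 at an unadjusted p under 0.05, as were 4.89% of all genes. Without the 4 doubted arrays Fabp1 was 2.71 higher (adjusted p = 0.00416) and Marco lower by 2.69 (adjusted p = 0.00853), beside 1.31% of all genes.

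Among PBS lungs, Siglecf was 3.56-fold lower in KitWsh than in WT mice (log2 -1.83 ± 0.33, adjusted p = 0.00329), the only call of 9, beside 1.18% of all genes. Of the other 8 genes, Marco, Krt79, Pparg and Mrc1 also lay wholly below WT without a call. Car4 lay wholly above (0.79, adjusted p = 0.603), and it was called without KitWsh_MCigeR PBS array 2 (adjusted p = 0.00379), when 7.92% of all genes were. With Siglecf, these were 6 of 9 genes whose groups did not overlap, where 30.8% of all genes did not. The second Car4 probe set, 1448949_at, did overlap, its lowest KitWsh array (11.43) lying below the highest WT array (11.45). It differed by 0.36 (adjusted p = 0.969 by limma in a fit of all probe sets). KitWsh_MC PBS lungs had 1.42 ± 0.35 more Siglecf than KitWsh PBS lungs (adjusted p = 0.042), 1 of 9, beside 1.20% of all genes. That call held in 1 of the 6 fits that left out 1 array. Fabp1 was 2.23 higher (adjusted p = 0.087, and 0.0221 without KitWsh_MCigeR PBS array 2, when 12.0% of all genes were called). A comparison added after the values had been seen set KitWsh_MCifngR PBS lungs against KitWsh_MC PBS lungs: Siglecf was lower by 1.68 ± 0.35 (adjusted p = 0.00796), 1 of 9, beside 2.91% of all genes. The differences of responses given above include these differences between PBS groups.

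RNA quality and other markers moved with some of these groups. The 3' to 5' beta-actin difference averaged 3.38 ± 1.08 in KitWsh_MCifngR OVA and 3.90 ± 0.29 in PBS lungs, 3.34 ± 1.93 in KitWsh_MC OVA and 2.92 ± 0.55 in PBS lungs, 1.74 ± 0.61 in KitWsh OVA and 2.07 ± 0.38 in PBS lungs, and 1.29 ± 0.12 in WT OVA and 1.37 ± 0.27 in PBS lungs (SD). Its part in the results between kinds was tested only as a covariate. Of 6 markers of eosinophils, the other main carriers of Siglecf, 1 passed the filter (Prg2), the mean level of the list ranged from 2.38 to 3.45 in all groups, and Epx was at the floor of 2.19 in all groups. Ccr3 was at that floor in every group but KitWsh_MCigeR PBS. Prg2 averaged 5.51 ± 0.84 in KitWsh_MC OVA and 5.48 ± 0.60 in KitWsh_MC PBS lungs, and 6.46 ± 0.43 in KitWsh OVA and 6.28 ± 0.39 in KitWsh PBS lungs (SD). Its OVA difference over the 5 kinds was 0.14 (adjusted p = 0.712), and among OVA lungs KitWsh_MC minus KitWsh was -0.94 (adjusted p = 0.252). The part of eosinophils in the Siglecf differences was not tested.

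Most other tested genes of the alveolar macrophage profile rose with OVA. Of 23 listed, 21 had a probe set and 19 were tested; 13 rose and 0 fell over the 5 kinds, where 16.6% of all genes were called (median 0.90, against 0.06 for all genes), and the count was the same without KitWsh_MCigeR PBS array 2. F7, coagulation factor VII, rose by 1.88 ± 0.23 (adjusted p = 5.91e-06), Chil3, a secreted chitinase-like protein, by 1.51 ± 0.18 (adjusted p = 4.36e-06), Olr1, an oxidised lipid receptor, by 1.34 ± 0.22 (adjusted p = 0.000194) and Atp6v0d2, a proton pump subunit, by 1.68 ± 0.29 (adjusted p = 0.000383). Ctsk, Csf2ra, Csf2rb, Csf2rb2, Fabp4, Fabp5, Plet1, Bhlhe40 and Lpl also rose. Il18 (0.12), Nr1h3 (0.19), Cd9 (0.61), Krt19 (0.48), Serpinb1a (0.24) and Ltc4s (1.06, adjusted p = 0.0502) did not pass. By kind, 0 of 19 rose in KitWsh_MCifngR mice, where 0.155% of all genes were called, 3 in KitWsh_MCigeR (19.0%), 7 in KitWsh_MC (6.52%), 2 in KitWsh (0.621%) and 1 in WT mice (1.36%), with none falling in any. Without KitWsh_MCigeR PBS array 2, 1, 0, 11, 4 and 2 rose in the same order, beside 0.776%, 0%, 20.5%, 6.55% and 9.32% of all genes.

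**Figure D4:**
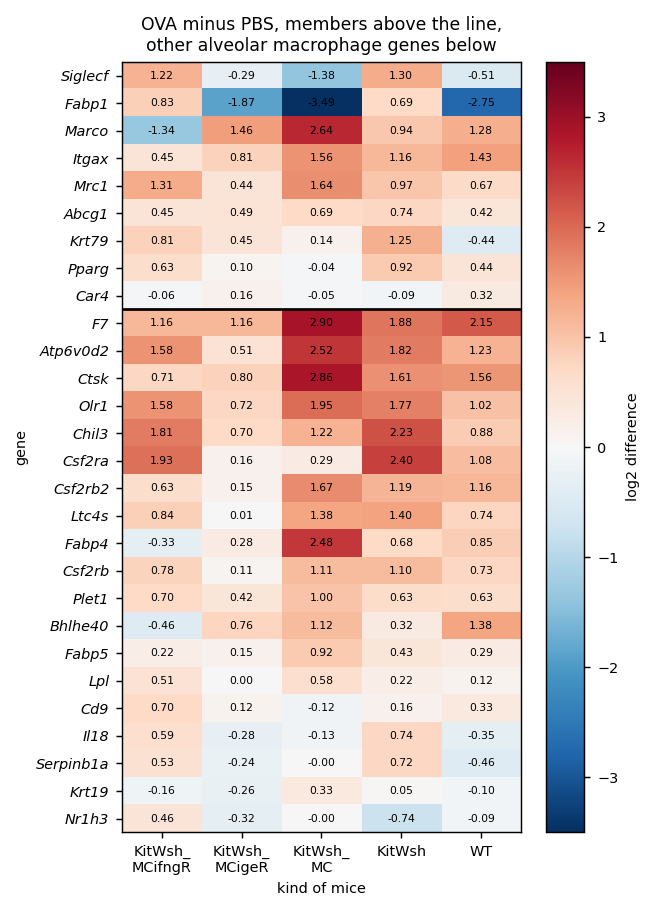
OVA minus PBS differences (log2, colour) in the 5 kinds of mice, without KitWsh_MCigeR PBS array 2, for the 9 genes (above the line) and 19 other alveolar macrophage genes (below). Siglecf and Fabp1 are below 0 in KitWsh_MC mice (-1.38 and -3.49) and above 0 in KitWsh mice (1.30 and 0.69).

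Genes around the 9 were counted in the same comparison over the 5 kinds, where 16.6% of all genes were called, and 27.5% without KitWsh_MCigeR PBS array 2. Of 15 tested genes for GM-CSF and TGF-beta signalling and macrophage transcription factors, 6 rose and 0 fell, among them Spi1, which encodes PU.1 (1.05 ± 0.17, adjusted p = 0.000136), and Cebpb (0.61 ± 0.11, adjusted p = 0.000655). Of 14 lipid-handling genes, 3 rose (Plin2 by 0.57, Fabp4 and Lpl) and 0 fell; without that array 4 rose and 2 fell (Abca1 and Pdk4). Of 12 scavenger and lectin receptors, 4 rose (Msr1, Clec7a, Clec4n and Cd68) and 0 fell. Of 6 relatives of Siglecf and Itgax, 2 rose, Cd33 (0.78, adjusted p = 0.00898) and the integrin chain Itgb2 (1.02, adjusted p = 0.00736).

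Markers of other cells that share these genes were counted beside the same 16.6% of all genes. Of 7 general macrophage genes 4 rose (Cd68, Adgre1, Fcgr1 and Lgals3) and 1 fell (Csf1r, -0.28, adjusted p = 0.0261). Of 11 genes of recruited monocytes and interstitial macrophages 6 rose, including Trem2 (1.62, adjusted p = 0.000715), Ms4a7 (1.64, adjusted p = 0.000127) and C1qb (1.13, adjusted p = 0.000926), and 0 fell, while Ccr2 differed by 0.04 (adjusted p = 0.86). The mean level of that list was 8.25 to 9.52 in KitWsh_MC OVA and 7.85 to 7.89 in KitWsh_MC PBS lungs, and 8.10 to 9.09 in KitWsh OVA and 7.69 to 8.00 in KitWsh PBS lungs. Its part in the rise of Mrc1, Itgax and Marco was not tested. Of 5 dendritic cell genes 1 rose (Flt3, 0.60, adjusted p = 0.00419). Of 9 endothelial genes 1 fell (Aplnr, -0.64, adjusted p = 0.00685), and the list ranged from 9.72 to 10.4 in KitWsh_MC OVA and from 10.4 to 10.7 in KitWsh_MC PBS lungs. Of 6 liver and enterocyte markers, which share Fabp1, 0 passed the filter, and Alb was at 2.19 in every WT array.

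Likeness across the 35 arrays left without KitWsh_MCigeR PBS array 2 was described by Pearson's r, with no test, since these arrays share groups and normalisation. Siglecf was most like Il18 (0.83), Ear3 (0.78) and S100g (0.77), and Il18 was also nearest to Krt79 (0.73). Siglecf had r of 0.37 with Fabp1 and 0.00 with Marco. Fabp1 was most like Bex2 (0.82), Tril (0.78) and Pard6b (0.78), and ran against Marco (-0.67) and Itgax (-0.61). Marco was most like Itga7 (0.79), Sec61b (0.78) and Clec4n (0.75). Mrc1 was most like Ccl6 (0.92), Atp6v0d2 (0.92) and Ms4a8a (0.91), and Itgax like Psap (0.94), Acp5 (0.92) and Ctsk (0.92). Abcg1 was nearest to Ctsd, Ly75 and Olr1 (0.86 each), Pparg to Pygl (0.82), Itgb2 (0.82) and Mpeg1 (0.81), and Car4 to Rgs5 (0.79), Retreg2 (0.77) and Atp10d (0.77).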

How the data were processed

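GCRMA gave the log2 intensities deposited by the authors; it corrects probes for background, normalises arrays by quantiles and summarises probe sets, per the submitters' processing notes (no version named). Values ran from 2.19 to 15.9, and low values sit at a floor with no order. Control probe sets (64) were left out. The platform annotation gave 1 symbol for 34945 probe sets outside the controls; over all probe sets, 932 had several symbols, and 9211 had none. The probe set with the highest mean stood for its gene.

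Limma 3.58.1 in R 4.3.3 (lmFit, eBayes) fitted 10 group means to 36 arrays with 26 residual degrees of freedom. The 11599 genes over log2 5 in at least 3 arrays were tested, with Benjamini-Hochberg adjustment over all of them, two-sided, and called at an adjusted p under 0.05. There were 16 planned comparisons and 1 added one. Names were drawn from the 9 genes, up to 4 genes of each list with the smallest adjusted p, each list's defining genes and the 3 genes most like each of the 9. Not all of these are named. Of the defining genes, C1qa, Zbtb46, Plin1, Pecam1, Cdh5, Apoa1, Sftpc, Scgb1a1, Krt5 and S100a8 are left out. Names beyond these sets were picked with their values in view. The members and the 17 lists were chosen with earlier results of these data known. The procedure was tested on simulated data. Promoters are RefSeq entries of GRCm38.p6. The number of arrays limits the precision. The labels give no scan date or batch. The highest correlation between 2 arrays was 0.994, so none was a duplicate by value. Alternatives were other normalisations, filters, array weights, a beta-actin covariate, fits to the compared groups alone and leaving out arrays.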

Additional observations from a re-analysis of the deposited data

Results flagged for a closer look

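In 6 of 72 pairs of a group and a probe set, 1 array lay far from the rest of its group by Dixon's test at 95%, which chance gives in about 1 in 20. Only groups of 4 arrays were looked at, so the PBS groups of 3, KitWsh_MCigeR PBS among them, were not. Car4 (1418094_s_at) was at 12.04 in KitWsh OVA array 1, against 11.51 to 11.59 in the other 3, and at 11.33 in WT PBS array 4, against 10.83 to 10.89. Its other probe set (1448949_at) was at 11.76 in KitWsh_MCifngR OVA array 3, against 11.47 to 11.51, and at 10.35 in KitWsh_MC OVA array 2, against 11.56 to 11.75. Mrc1 was at 10.32 in KitWsh OVA array 3, against 10.84 to 10.93. Abcg1 (1455221_at) was at 7.24 in WT OVA array 2, against 6.40 to 6.48.

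The OVA response differed between kinds of mice, by limma's test of the difference, in 3 cases. KitWsh_MC minus KitWsh gave -2.68 for Siglecf and -4.19 for Fabp1. KitWsh_MCifngR minus KitWsh_MC gave 2.60 for Siglecf.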

How the results depend on the processing

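For the genes called in a comparison with all arrays or without KitWsh_MCigeR PBS array 2, no difference changed direction under the alternatives run. Where a gene had 2 tested probe sets, they differed in sign in 11 of 51 comparisons, all of Car4 or Abcg1 and none with a call, such as Car4 in KitWsh mice (-0.09 and 0.17). Of those called genes' values under other settings, 676 kept their side of the threshold, 63 passed it newly and 114 lost it. The numbers of the 9 genes called that moved by more than 1.5 times are given below for each setting, with the number under the standard fit to all arrays in parentheses at first mention; smaller moves, of 1 or 2 genes, are not listed, among them 7 with array weights for the mean over 5 kinds (5). Leaving out KitWsh_MCigeR PBS array 2 gave 2 for OVA against PBS in WT mice (1 with all arrays), 1 in KitWsh (0), 5 in KitWsh_MC (3) and 0 in KitWsh_MCigeR mice (4), 3 for the response of KitWsh_MCifngR against KitWsh_MC (1), 2 for OVA KitWsh_MCigeR against KitWsh_MC (1), and 2 each for PBS KitWsh against WT, KitWsh_MC against KitWsh and KitWsh_MCifngR against KitWsh_MC (1 each). Leaving out the 4 doubted arrays gave 3, 1, 5 and 0 for OVA against PBS in WT, KitWsh, KitWsh_MC and KitWsh_MCigeR mice, 1 for the response of KitWsh against WT (0), 2 for that of KitWsh_MCifngR against KitWsh_MC, 2 for OVA KitWsh against WT (0), 2 for OVA KitWsh_MCigeR against KitWsh_MC, and 3, 2 and 2 for the 3 PBS comparisons. Array weights gave 7 in WT, 6 in KitWsh, 6 in KitWsh_MC, 5 in KitWsh_MCifngR (0) and 0 in KitWsh_MCigeR mice, 4 for the response of KitWsh against WT, 4 for that of KitWsh_MCifngR against KitWsh_MC, 2 for OVA KitWsh against WT, 5 for KitWsh_MC against KitWsh (3), 6 for KitWsh_MCifngR against KitWsh_MC (3), 3 for KitWsh_MCigeR against KitWsh_MC, and 7, 2 and 3 for the 3 PBS comparisons. The beta-actin covariate gave 2 in WT, 1 in KitWsh, 5 in KitWsh_MC and 0 in KitWsh_MCigeR mice, and 2 each for the response of KitWsh_MCifngR against KitWsh_MC, OVA KitWsh_MCigeR against KitWsh_MC and PBS KitWsh_MCifngR against KitWsh_MC. Averaging all probe sets of a gene gave 0 in KitWsh_MCigeR mice and 2 each for the response and the PBS comparison of KitWsh_MCifngR against KitWsh_MC. Median centring gave 5 in KitWsh_MC and 2 in KitWsh_MCigeR mice, 1 for the response of KitWsh_MC against KitWsh (2), and 0 each for the response of KitWsh_MCifngR against KitWsh_MC, OVA KitWsh_MCigeR against KitWsh_MC and PBS KitWsh_MC against KitWsh. Quantile normalisation gave 5 in KitWsh_MC mice and 0 in the same 3 comparisons. No filter gave 0 in KitWsh_MCigeR mice and 0 for OVA KitWsh_MCigeR against KitWsh_MC. Fitting the arrays of the compared groups alone gave 2 in WT, 5 in KitWsh and 0 in KitWsh_MCigeR mice, 2 for the response of KitWsh against WT, 0 each for that of KitWsh_MCifngR against KitWsh_MC and for OVA KitWsh_MCifngR and KitWsh_MCigeR against KitWsh_MC, and 7, 2 and 4 for the 3 PBS comparisons; it could not be run for the mean over 5 kinds, which uses all groups. A filter of log2 6 in 4 arrays left every count as it was. Shares of all genes called were not set beside these counts, nor beside those for single arrays below. Such shares can move as well, from 1.36% to 9.32% in WT mice without KitWsh_MCigeR PBS array 2. The counts therefore cannot tell a change in the 9 genes from a change in all genes. The cause of these moves was not tested.

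Leaving out in turn each array of the groups compared, apart from KitWsh_MCigeR PBS array 2 above, gave 0 to 1 genes in WT, 0 in KitWsh, 1 to 3 in KitWsh_MC, 0 to 1 in KitWsh_MCifngR and 0 to 6 in KitWsh_MCigeR mice, and 5 to 6 for the mean over 5 kinds, whose 5 called genes were called in 35 of 35 fits. For the responses it gave 0 to 1 (KitWsh against WT), 0 to 2 (KitWsh_MC against KitWsh), 0 (KitWsh_MC against WT) and 0 to 3 (KitWsh_MCifngR against KitWsh_MC). For OVA lungs it gave 0 to 1, 1 to 3, 1 to 3 and 0 to 1 (KitWsh against WT, then KitWsh_MC against KitWsh, KitWsh_MCifngR and KitWsh_MCigeR against KitWsh_MC). For PBS lungs it gave 1, 0 to 1 and 1. No paired analysis was possible because the numbers in the titles run serially over all samples and the replicate numbers, given in accession order, tie no samples together.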

Other observations

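Of 8 tested genes of type 2 activated macrophages, 4 rose with OVA over the 5 kinds of mice and 0 fell, where 16.6% of all genes were called. Chil4, a chitinase-like protein, rose by 6.50 ± 0.56 log2 units (adjusted p = 2.15e-08), Arg1, the arginase of interleukin-4-activated macrophages, by 3.11 ± 0.38 (adjusted p = 5.38e-06) and Retnla, a resistin-like protein, by 2.19 ± 0.25 (adjusted p = 2.74e-06). Chil3 and Chil4 are close paralogs, and how far their probe sets share signal was not tested.

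The following counts are also over the 5 kinds of mice, and each stands beside the 16.6% of all genes called there. Of 4 tested mast cell genes 3 rose, the proteases Cpa3 (1.41 ± 0.25, adjusted p = 0.000397), Cma1 (1.55 ± 0.28, adjusted p = 0.000494) and Tpsb2 (0.92 ± 0.24, adjusted p = 0.00792). The mean level of that list was 4.82 to 7.50 in KitWsh_MCifngR OVA and 3.54 to 4.39 in KitWsh_MCifngR PBS lungs, 4.97 to 5.86 in KitWsh_MC OVA and 3.31 to 3.77 in KitWsh_MC PBS lungs, and 3.30 to 3.87 in KitWsh OVA and 2.98 to 3.42 in KitWsh PBS lungs. Adipoq, the adipocyte hormone, fell by 2.30 ± 0.32 (adjusted p = 2.83e-05), 1 of 3 tested adipocyte genes. Of 7 neutrophil genes 1 rose (Ltf, 1.29, adjusted p = 0.0101) and 1 fell (Camp, -1.12, adjusted p = 0.00223). Of 8 lung epithelial genes 0 were called by limma, with 2 at an unadjusted p under 0.05, as were 31.4% of all genes. The keratinocyte list, checked because of Krt79, had 0 of 5 genes over the filter.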
